A study of Mus musculus with 30 samples.

Results

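The receptors that bind the vascular endothelial growth factors (VEGF) were followed across the sorted stromal cells of the newborn mouse thymus. The set held 5 of the 18847 genes in the expression table, chosen by gene symbol: the receptor tyrosine kinases Kdr (VEGFR2), Flt1 (VEGFR1) and Flt4 (VEGFR3), and the neuropilins Nrp1 and Nrp2. All 5 were found, and all 5 passed the filter on low values, which asked for at least 1 FPKM in at least 2 libraries.

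VEGF-A acts on endothelium mainly through Kdr, whose kinase drives growth, survival and permeability of vessels, while Flt1 binds the ligand more tightly but signals weakly and is thought to hold it back from Kdr. Flt4 is the receptor for VEGF-C and VEGF-D and is best known from lymphatic vessels, although growing blood vessels carry it too. Neuropilins lack a kinase: Nrp1 presents VEGF-A to Kdr, Nrp2 partners with Flt4, and both also form receptors for class 3 semaphorins together with plexins, also outside vessels.

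The libraries came from B6.SJL mice of mixed sex given 1 of 2 agents on postnatal day 1 and collected on postnatal day 3. The Trap groups received aflibercept, a soluble decoy made of parts of VEGFR1 and VEGFR2 fused to an antibody Fc, and the control groups received the Fc control antibody hFC. After depletion of CD45-positive cells, 5 populations were sorted: CD31-positive endothelium, CD146-positive mesenchyme, CD140a-positive mesenchyme, and cortical (cTEC) and medullary (mTEC) thymic epithelial cells. Each population had 4 Trap and 2 control libraries, 30 in all, and every mouse carried the same strain background with no transgene named. The labels do not say how many animals stand behind a library or whether libraries come from separate animals, and a p-value here speaks only of the spread among these libraries, which may be technical.

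Values are the authors' FPKM (fragments per kilobase of a gene, scaled to the fragments of the library), so levels can be set side by side between genes. They summed to 184608 to 241993 per library, 10298 to 13661 genes reached 1 FPKM, and the number of reads behind a value is unknown. Sorting markers were checked first: Pecam1, the gene of CD31, averaged 321 FPKM in endothelium and 1.63 to 2.64 FPKM in the other populations, and Pdgfra, the gene of CD140a, averaged 121 FPKM in CD140a mesenchyme. Epcam averaged 306 FPKM in cTEC and 472 FPKM in mTEC, and at most 1.84 FPKM elsewhere. Mcam, the gene of CD146, averaged 131 FPKM in CD146 mesenchyme and also 110 FPKM in endothelium. The endothelial Trap library of replicate 2 stood apart in epithelial transcripts, with 26.0 FPKM of Tbata and 7.43 FPKM of Krt5, against at most 4.37 and 0.68 FPKM in the other endothelial libraries. In endothelium the cTEC marker list summed to 101.34 to 181.61 FPKM with Trap and 101.22 to 111.92 FPKM in controls. Of the 8 genes on that list, 2 were higher in endothelium than in the other populations and 6 were lower. The sum thus does not measure epithelial RNA alone. Prss16, also on the list, was at 11.55 FPKM in Trap replicate 2 and at most 1.59 FPKM in the other endothelial libraries. Estimates without Trap replicate 2 are given for Flt4, Nrp1, Nrp2, Esm1, Ptprj and the ratio of Flt4 to Kdr.

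The start sites of the receptor tyrosine kinases are shown because all their transcripts stood far higher in endothelium than in the other populations. Shared regulation was not tested. Each line gives the 250 bases before the RefSeq start of the gene in GRCm38.p6, read 5′ to 3′ on the gene's own strand, with each GGAA or its reverse complement TTCC, the core of ETS factor sites, in capitals. Kdr is shown at chr5:75978456-75978705 (minus strand), Flt1 at chr5:147726012-147726261 (minus strand) and Flt4 at chr11:49609429-49609678 (plus strand).
Kdr: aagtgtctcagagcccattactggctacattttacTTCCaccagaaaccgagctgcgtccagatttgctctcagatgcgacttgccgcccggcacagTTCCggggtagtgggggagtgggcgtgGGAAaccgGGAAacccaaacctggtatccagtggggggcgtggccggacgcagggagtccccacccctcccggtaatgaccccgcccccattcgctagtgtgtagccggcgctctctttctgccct
Flt1: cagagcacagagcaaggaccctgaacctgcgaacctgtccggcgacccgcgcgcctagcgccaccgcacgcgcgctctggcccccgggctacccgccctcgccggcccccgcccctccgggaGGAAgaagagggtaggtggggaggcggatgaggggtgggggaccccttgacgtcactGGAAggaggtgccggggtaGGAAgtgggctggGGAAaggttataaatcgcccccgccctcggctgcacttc
Flt4: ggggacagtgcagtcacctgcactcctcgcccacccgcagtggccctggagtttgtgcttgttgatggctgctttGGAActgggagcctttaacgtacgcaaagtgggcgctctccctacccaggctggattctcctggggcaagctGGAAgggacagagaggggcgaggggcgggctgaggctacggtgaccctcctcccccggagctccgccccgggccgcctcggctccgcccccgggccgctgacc

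GGAA was matched 4 times before Kdr, 4 times before Flt1 and 2 times before Flt4, and also 4 times before Nrp1 and 1 time before Nrp2. Such a match is common: 93.4% of 32851 mouse promoter windows of the same length held at least 1. The letters TATAAA were matched before Flt1, from 31 to 26 bases ahead of its start, and before no other member, while 12.4% of all windows held them. TGACGT, the core of a cyclic AMP response element, was matched 2 times before Flt1 in overlapping positions on opposite strands, against 6.47% of windows with any match, and before no other member. GGGCGG, an Sp1 box, was matched in all 5 windows (2 matches for Kdr, 3 for Flt1, 3 for Flt4, 1 for Nrp1 and 5 for Nrp2) and in 32.7% of windows, and ACGTG, a form of the core of a hypoxia response element, in none of the 5 and in 16.6% of windows. GCGTG, another form of that core, was not searched over all windows, so no share is given for it. These letters or their reverse complement CACGC stand in the Kdr and Flt1 windows shown, and also in the windows of Nrp1 and Nrp2. Every motif counted here was searched on both strands, and a match is a description of letters.

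In the GENCODE M21 annotation of GRCm38, Kdr spans chr5:75932827-75978458 and Flt1 chr5:147561604-147726011, both read on the minus strand. The remaining genes are read on the plus strand: Flt4 spans chr11:49609263-49652739, Nrp1 chr8:128358604-128503363 and Nrp2 chr1:62703285-62818695. The RefSeq window shown for Flt4 falls inside the span of that gene, as does the window counted for Nrp1 (chr8:128358823-128359072). The windows of Nrp2 (chr1:62703067-62703316) and Kdr reach into the spans of their genes at the end nearest the start. FPKM were given per gene, and the annotation lists 6 transcripts of Flt1 and 7 of Nrp2, so soluble and membrane-bound forms cannot be told apart here.

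Endothelium carried all 5 receptors, and it was the population with the highest mean of each. Over all libraries Flt1 was the most abundant there at 126 ± 12.2 FPKM (SD, n = 6 libraries, Trap and control together, as for all population means here), followed by Kdr at 114 ± 22.9 FPKM and Nrp2 at 71.0 ± 5.61 FPKM. The order of Flt1 and Kdr differed by group. In controls Kdr averaged 141 FPKM and Flt1 135 FPKM, and with Trap Kdr averaged 100 FPKM and Flt1 121 FPKM. Nrp1 averaged 35.4 ± 4.23 FPKM and Flt4 19.9 ± 5.46 FPKM. Against the mean of the other 4 populations, all 5 members were higher in endothelium, where 52.1% of the 16425 genes tested passed and 17.7% were higher. The log2 differences were 6.60 ± 0.12 for Kdr, 5.48 ± 0.12 for Flt1, 3.78 ± 0.16 for Flt4, 2.94 ± 0.14 for Nrp2 and 2.23 ± 0.10 for Nrp1 (SE). Each is a difference of log2(FPKM + 1) from limma with Benjamini-Hochberg adjustment over all genes tested and a threshold of 0.05, and the largest of the 5 adjusted p was 7.37e-16.

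**Figure D1:**
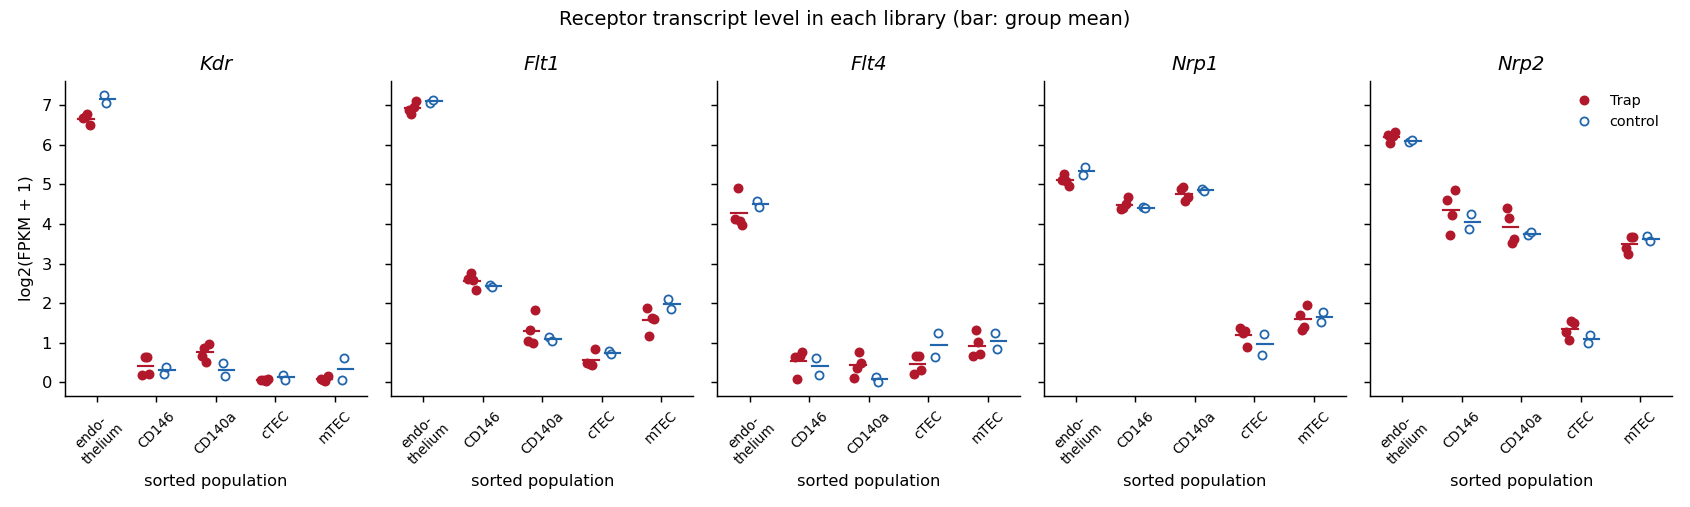
Transcript level of each receptor in every library, as log2(FPKM + 1), by sorted population, with Trap libraries as filled red points, control libraries as open blue points and a bar at each group mean. Kdr, Flt1 and Flt4 stand high in endothelium alone, while Nrp1 and Nrp2 are also carried by both mesenchymal populations.

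Outside endothelium, Kdr stayed below 1 FPKM in every library. In CD140a mesenchyme it was listed at 0.60, 0.82, 0.42 and 0.97 FPKM in the Trap libraries and 0.41 and 0.11 FPKM in the controls. Means were 0.555 FPKM in CD140a mesenchyme, 0.317 FPKM in CD146 mesenchyme, 0.142 FPKM in mTEC and 0.0633 FPKM in cTEC. Neighbours in this order did not pass the test (adjusted p = 0.429 for CD146 against CD140a mesenchyme, 0.429 for CD146 mesenchyme against mTEC and 0.567 for cTEC against mTEC, limma), although CD146 mesenchyme against mTEC passed with quantile normalization (0.37, adjusted p = 0.0265). CD140a mesenchyme against cTEC passed with a log2 difference of 0.44 ± 0.15 (SE, adjusted p = 0.0174), but not without CD140a control replicate 1 (0.36, adjusted p = 0.110) or without cTEC control replicate 2 (0.41, adjusted p = 0.0668). CD140a mesenchyme against mTEC missed the threshold (0.32 ± 0.15, adjusted p = 0.0678) but passed under 8 alternatives (0.36 to 1.16): both smaller pseudocounts, TPM, quantile and upper quartile scaling, and without CD140a control replicate 2, CD140a Trap replicate 3 or mTEC control replicate 2. CD146 mesenchyme against cTEC (0.26 ± 0.15, adjusted p = 0.168) passed with a pseudocount of 0.1 and after rescaling to TPM (1.12 and 0.86).

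Flt1, in contrast to Kdr, averaged above 1 FPKM in 3 populations outside endothelium. It averaged 4.77 ± 0.631 FPKM in CD146 mesenchyme, CD146 being a surface marker of pericytes and smooth muscle, with 5.09, 5.75, 5.0 and 4.03 FPKM in the Trap libraries and 4.46 and 4.29 FPKM in the controls. In mTEC its mean was 2.33 ± 0.701 FPKM, in CD140a mesenchyme 1.40 ± 0.598 FPKM and in cTEC 0.550 ± 0.191 FPKM. Every step of this order passed the test: CD146 mesenchyme was above mTEC by 0.72 ± 0.15 (log2, SE, adjusted p = 2.66e-04), CD140a mesenchyme below mTEC by a log2 difference of -0.57 ± 0.15 (adjusted p = 0.00254), and CD140a mesenchyme above cTEC by 0.55 ± 0.15 (adjusted p = 0.00488). With quantile normalization the step between CD140a mesenchyme and mTEC was lost (-0.07, adjusted p = 0.750). That scaling also moved the median of all genes in mTEC against the other populations, to -0.14 from 0.19 on the deposited scale. No CD146 library overlapped any library of mTEC, CD140a mesenchyme or cTEC.

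Flt4 outside endothelium averaged 0.993 FPKM in mTEC, 0.587 FPKM in cTEC, 0.432 FPKM in CD146 mesenchyme and 0.265 FPKM in CD140a mesenchyme. No step between neighbours passed (adjusted p = 0.277 for cTEC against mTEC, 0.397 for CD146 mesenchyme against cTEC and 0.481 for CD146 against CD140a mesenchyme, limma), while the ends of the order differed: CD140a mesenchyme lay below mTEC by a log2 difference of -0.74 ± 0.20 (SE, adjusted p = 0.00277), which was lost with quantile normalization (-0.13, adjusted p = 0.601). CD146 mesenchyme against mTEC passed at -0.52 ± 0.20 (adjusted p = 0.0309), but not without CD146 control replicate 2, CD146 Trap replicate 2, mTEC control replicate 1 or mTEC Trap replicate 2 (adjusted p = 0.0605 to 0.150), nor after rescaling to TPM or by the upper quartile, and its sign turned to 0.03 with quantile normalization. CD140a mesenchyme against cTEC missed the threshold (-0.45 ± 0.20, adjusted p = 0.0743) but passed under 6 alternatives (-1.44 to -0.45): both smaller pseudocounts, TPM, a weight per population, and without cTEC control replicate 1 or endothelial Trap replicate 2.

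The neuropilins were spread more widely. Nrp1 in CD146 mesenchyme stood at 19.60, 20.16, 21.52 and 24.46 FPKM in the Trap libraries and 20.38 and 20.19 FPKM in the controls. In mesenchyme sorted on CD140a, a fibroblast marker, it stood at 28.34, 29.48, 22.69 and 24.51 FPKM in the Trap libraries and 28.31 and 27.34 FPKM in the controls. Trap and control libraries overlapped in both, and the lowest endothelial library, at 30.22 FPKM, lay above all 12 mesenchymal ones.

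Endothelium exceeded CD140a mesenchyme in Nrp1 by 0.41 ± 0.13 (log2, SE, adjusted p = 0.0129, limma), a call that was lost without endothelial control replicate 2 (0.37, adjusted p = 0.0628), with a pseudocount of 0.1 (adjusted p = 0.0624), after rescaling to TPM (adjusted p = 0.0632) and with quantile normalization (0.27, adjusted p = 0.123). CD146 mesenchyme lay below CD140a mesenchyme by a log2 difference of -0.36 ± 0.13 (adjusted p = 0.0395), and this call was lost on leaving out any library of the 2 populations other than CD140a Trap replicates 3 and 4 and CD146 Trap replicate 4 (9 libraries in all, adjusted p up to 0.114), with the smaller pseudocounts or after rescaling to TPM (adjusted p up to 0.149). In thymic epithelium Nrp1 was low, with means of 1.203 FPKM in cTEC and 2.09 FPKM for mTEC, and cTEC lay below mTEC by a log2 difference of -0.54 ± 0.13 (adjusted p = 0.00152), lost with quantile normalization (-0.03, adjusted p = 0.900).

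Nrp2 averaged 18.7 ± 5.90 FPKM in CD146 mesenchyme, 13.9 ± 3.71 FPKM in CD140a mesenchyme, 10.7 ± 1.45 FPKM in mTEC and 1.42 FPKM in cTEC. Endothelium was above CD146 mesenchyme by 1.95 ± 0.17 (log2, SE, adjusted p = 5.45e-10, limma), and the next steps, CD146 against CD140a mesenchyme (0.37 ± 0.17, adjusted p = 0.120) and CD140a mesenchyme against mTEC (0.27 ± 0.17, adjusted p = 0.186), did not pass. The first of these passed without CD146 Trap replicate 2 (0.47, adjusted p = 0.0241) and without CD140a Trap replicate 1 (0.45, adjusted p = 0.0483), and the second after rescaling to TPM, by quantiles or by the upper quartile (0.53 to 0.55, adjusted p = 0.0081 to 0.0180). Epithelium was split: cTEC libraries held 1.10 to 1.93 FPKM with Trap and 0.98 to 1.28 FPKM in controls, and mTEC libraries 8.42 to 11.82 FPKM with Trap and 10.78 to 11.91 FPKM in controls. The log2 difference of cTEC against mTEC was -2.34 ± 0.17 (adjusted p = 1.65e-11), and it was the widest gap between these 2 epithelial populations among the 5 members.

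Set against the mean of the other 4 populations, CD146 mesenchyme was higher in Nrp1 (1.27 ± 0.10, log2, SE) and Nrp2 (0.51 ± 0.14) and lower in Kdr and Flt4, 4 members called where 43.2% of all genes passed, 18.2% higher and 25.0% lower, and the Nrp2 call was lost without CD146 control replicate 2 (0.42, adjusted p = 0.0630, limma). CD140a mesenchyme was higher in Nrp1 (1.71 ± 0.10) and lower in Kdr, Flt1 and Flt4, 4 members called against 50.1% of all genes, 17.1% higher and 33.0% lower. All 5 members were lower in cTEC (45.8% of all genes passed, 24.5% lower), by log2 differences of -0.82 ± 0.16 for Flt4 to -3.22 ± 0.14 for Nrp2, and the call of Flt4 was lost with a pseudocount of 0.1 (-0.89, adjusted p = 0.0539). In mTEC 4 were lower (55.8% of all genes passed, 17.5% lower). Nrp2 did not pass there (-0.29 ± 0.14, adjusted p = 0.0771), but did without CD146 Trap replicate 2 (-0.32, adjusted p = 0.0297) and after the 3 rescalings (-0.51 to -0.42). In mTEC the call of Flt4 (-0.46 ± 0.16) was lost without mTEC control replicate 2 (-0.36, adjusted p = 0.138), with smaller pseudocounts and after rescaling to TPM. The mean of the others includes endothelium for each of these 4 populations.

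Over the 10 pairs of populations, 39 of the 50 differences in members passed. Endothelium differed in all 5 members from CD146 mesenchyme (35.7% of all genes passed), CD140a mesenchyme (41.0%), cTEC (44.7%) and mTEC (57.8%). CD146 mesenchyme differed in 2 members from CD140a mesenchyme (31.2%), in 3 from cTEC (41.6%) and in 4 from mTEC (55.7%). CD140a mesenchyme differed in 4 members from cTEC (43.9%) and in 3 from mTEC (57.2%), and cTEC in 3 from mTEC (41.2%).

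Levels outside endothelium were set beside those of 16 pan-endothelial genes, such as the junction cadherin Cdh5 and the receptor Tie1. In CD140a mesenchyme Kdr stood at 0.488% of its endothelial level, Flt1 at 1.12% and Flt4 at 1.33%, against 0.588% for the median marker. Nrp1 stood there at 75.6% and Nrp2 at 19.6%. Nrp1 was above all 16 markers in this share, while Nrp2 was above 15 and below Tek, the angiopoietin receptor, at 27.8%.

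In CD146 mesenchyme Kdr stood at 0.278% of its endothelial level, Flt4 at 2.165%, Flt1 at 3.796%, Nrp2 at 26.4% and Nrp1 at 59.4%, against 1.34% for the median marker. Flt1 thus lay above 11 of the 16 markers there and Kdr above 3. In mTEC, Nrp2 at 15.1%, Nrp1 at 5.90% and Flt4 at 4.98% lay above all 16 markers, whose highest share was 4.05%. In cTEC, Nrp1 at 3.40% lay above all 16, and Flt4 (2.94%), Nrp2 (2.00%) and Flt1 (0.438%) above 15, 15 and 11. These shares are ratios of mean FPKM and describe levels; the part of endothelial RNA in the low values of Kdr, Flt1 and Flt4 was not tested.

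**Figure D2:**
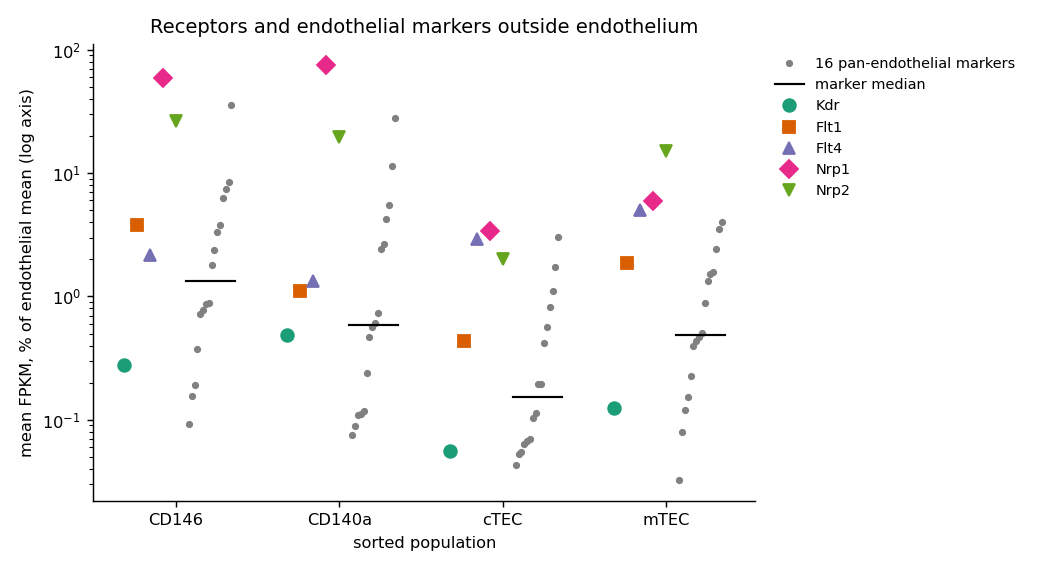
Mean level of each receptor (coloured symbols) and of 16 pan-endothelial markers (grey points, black line at their median) in the 4 populations outside endothelium, as a percentage of the mean endothelial level on a log axis. Nrp1 stands above every marker in all 4 populations, and Kdr lies below the marker median in each.

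The balance of the neuropilins differed between populations. The ratio of Nrp1 to Nrp2 FPKM ran from 1.41 to 2.34 over the 6 libraries of CD140a mesenchyme, so Nrp1 was the more abundant in each. It ran from 0.382 to 0.616 in endothelium and from 0.137 to 0.244 in mTEC, with Nrp2 the more abundant in every library. In CD146 mesenchyme (0.838 to 1.65) and cTEC (0.473 to 1.245) libraries lay on both sides of 1. The ranges of CD140a mesenchyme, endothelium and mTEC did not overlap each other.

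**Figure D3:**
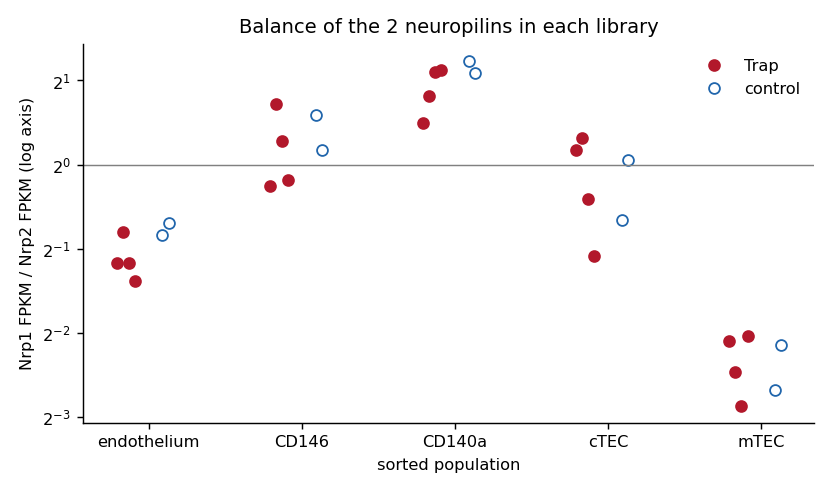
Ratio of Nrp1 to Nrp2 FPKM in each library by population, on a log axis with a line at a ratio of 1, Trap libraries as filled red points and control libraries as open blue points. CD140a mesenchyme lies above 1 in all 6 libraries, and endothelium and mTEC below 1 in all of theirs.

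The main question put to the receptors was whether they moved when VEGF was bound by the decoy. In endothelium, Kdr stood at 101.65, 102.47, 107.90 and 88.58 FPKM in the Trap libraries, against 150.69 and 131.26 FPKM in the controls. All 4 Trap libraries lay below both controls, with means of 100.15 ± 8.20 FPKM (SD, n = 4) with Trap and 141 ± 13.7 FPKM (SD, n = 2) in controls. The log2 difference was -0.49 ± 0.21 (SE; 95% interval -0.92 to -0.06), and it did not pass after adjustment over all genes (adjusted p = 0.265, limma). A separation of this kind, in either direction, was found for 14.8% of the genes tested, and in the lower direction for 9.48%.

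Of the 5 members, 0 passed in endothelium, where 1.74% of all genes did, and 1 (Kdr) had an unadjusted p under 0.05 in limma. Pan-endothelial markers stand beside this result: their summed level was 2619.69 to 2734.07 FPKM in the Trap libraries and 2824.16 to 2840.83 FPKM in the controls, 11 of 16 had a log2 difference below 0, 0 of 16 passed and their median was -0.12, against -0.02 over all genes. Arterial markers summed to 172.82 to 195.21 FPKM with Trap and 216.27 and 220.55 FPKM in controls, without overlap, with 5 of 6 below 0 and a median of -0.23. Among single genes, 9.48% of those tested separated in that direction. Of the 16425 genes tested, 8620 had a log2 difference below 0 and 7121 above. Venous markers had 4 of 6 above 0 and a median of 0.29, fibroblast markers 7 of 9 above 0 and a median of 0.76, and mural markers 6 of 8 below 0 and a median of -0.57. Of these 4 lists, 1 gene passed (Pi16, a fibroblast marker, higher). The part of these lists in the lower Kdr values was not tested. Since RNA was measured in sorted bulk cells, fewer cells of a kind and less RNA per cell cannot be told apart.

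Flt1 in endothelium held 116.38, 107.89, 123.04 and 135.68 FPKM with Trap, against 131.14 and 139.78 FPKM in controls, and the groups overlapped through Trap replicate 4. Its log2 difference was -0.17 ± 0.22 (SE; 95% interval -0.62 to 0.28; adjusted p = 0.835, limma). Nrp1 held 33.33, 37.29, 32.63 and 30.22 FPKM with Trap, against 36.92 and 42.08 FPKM in controls. Here too 3 Trap libraries lay below both controls and replicate 2 between them, and the difference was -0.24 ± 0.19 (95% interval -0.62 to 0.15; adjusted p = 0.632; -0.29 without replicate 2 and -0.15 without control replicate 2, limma).

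Nrp2 held 74.76, 64.85, 73.39 and 79.04 FPKM with Trap, against 65.73 and 68.35 FPKM in controls, so that 3 Trap libraries lay above both controls and replicate 2 below both. It was the only member with a positive estimate in endothelium, 0.12 ± 0.25 (log2, SE; 95% interval -0.39 to 0.62; adjusted p = 0.943, limma), and 0.17 without replicate 2. The intervals of Flt1, Nrp1 and Nrp2 span 0 and do not show that these receptors stayed the same.

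Flt4 held 16.41, 29.18, 15.84 and 14.83 FPKM with Trap, against 22.79 and 20.56 FPKM in controls. Replicate 2, the library with the epithelial transcripts, was above both controls, and the other 3 were below both. The highest Flt4 value was 1.5 FPKM in mTEC libraries and 1.38 FPKM in cTEC libraries, and the part of epithelial RNA was not tested. The log2 difference was -0.23 ± 0.29 (SE; 95% interval -0.81 to 0.36; adjusted p = 0.827, limma), and without Trap replicate 2 it was -0.44, still short of the threshold (adjusted p = 0.496). Lymphatic markers varied widely between the same libraries. The 6 on the list summed to 40.53 to 280.72 FPKM with Trap and to 29.65 and 150.1 FPKM in controls. Of these, Ccl21a held 28.99 to 202.4 FPKM with Trap and 16.35 and 85.54 FPKM in controls. Ccl21a also averaged 948 FPKM in mTEC and 475 FPKM in cTEC. Prox1, the master regulator of lymphatic fate, was at 34.10, 42.46, 22.64 and 7.02 FPKM with Trap and 22.67 and 9.35 FPKM in controls. Lyve1 was at 46.83, 19.41, 9.96 and 1.32 FPKM with Trap and 20.11 and 1.71 FPKM in controls. Mmrn1 was at 14.8, 13.46, 10.57 and 1.54 FPKM with Trap and 20.14 and 1.94 FPKM in controls. All 6 on the list had a log2 difference above 0, as had 7121 of the 16425 genes tested, and 0 passed. The part of these markers in the Flt4 values was not tested.

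**Figure D4:**
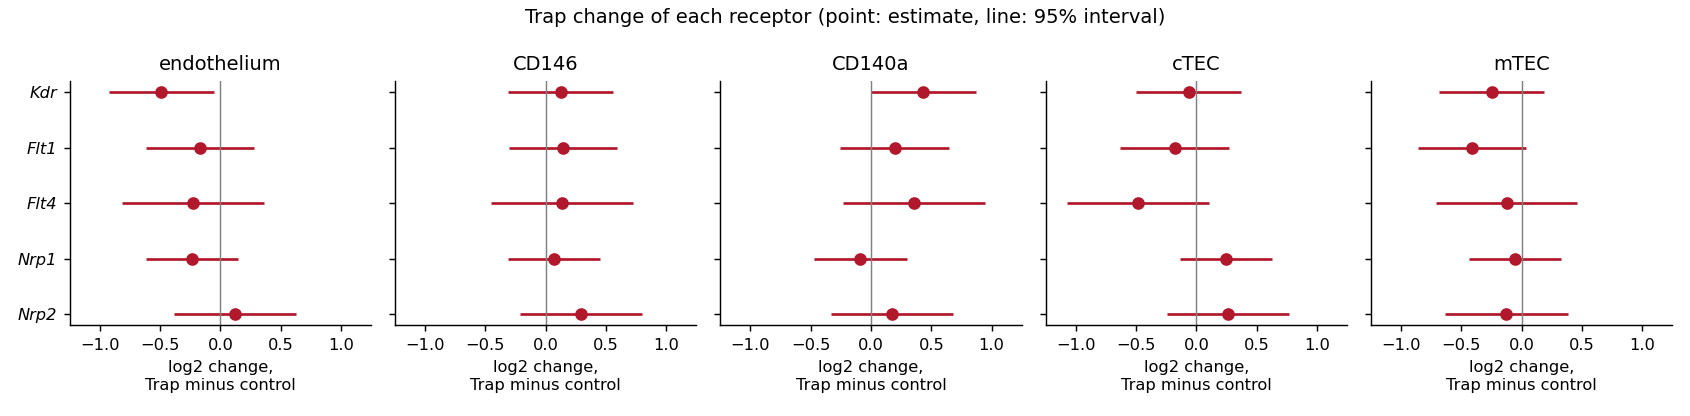
Trap minus control difference in log2(FPKM + 1) for each receptor in each population, with the estimate as a point and the 95% interval as a line. Of the 25 intervals, only that of Kdr in endothelium (-0.92 to -0.06) leaves out 0, and none of the 25 differences passed after adjustment over all genes.

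Outside endothelium, 0 of 5 members passed in any population, where 0.0183% of all genes passed in CD146 mesenchyme, 0% in CD140a mesenchyme, 0.00609% in cTEC and 0.347% in mTEC, and 0 members had an unadjusted p under 0.05 (limma). Kdr in CD140a mesenchyme was the only other case of 25 in which the groups did not overlap: all 4 Trap libraries (0.42 to 0.97 FPKM) lay above both controls (0.11 and 0.41 FPKM), a separation seen in 11.9% of all genes there and upwards in 5.14%. The log2 difference was 0.43 ± 0.21 (SE; 95% interval -0.00047 to 0.87; adjusted p = 1.00, limma), and with a pseudocount of 0.1 it was 1.24, at levels below 1 FPKM. Pan-endothelial markers summed to 50.76 to 71.33 FPKM in these Trap libraries and to 57.80 and 69.19 FPKM in the controls, so the groups overlapped in that sum. By gene, 11 of the 16 had a log2 difference above 0, 0 passed and their median was 0.12, and their part in the Kdr values was not tested.

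Flt1 in mTEC was 2.68, 1.26, 2.07 and 2.02 FPKM with Trap, against 3.30 and 2.62 FPKM in controls, with 3 of 4 Trap libraries below both controls. Its log2 difference was -0.41 ± 0.22 (SE; adjusted p = 0.724, limma). Flt4 in cTEC was 0.15, 0.60, 0.59 and 0.24 FPKM with Trap, against 0.56 and 1.38 FPKM in controls, and the difference was -0.48 ± 0.29 (adjusted p = 1.00). For the neuropilins outside endothelium, the estimates lay between -0.13 (Nrp2 in mTEC) and 0.30 (Nrp2 in CD146 mesenchyme), with SE of 0.19 for Nrp1 and 0.25 for Nrp2.

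Averaged over the 5 populations, 0 members passed (0.426% of all genes did), with mean log2 Trap changes of -0.08 ± 0.10 (SE) for Flt1 to 0.14 ± 0.11 for Nrp2. The difference of Trap changes was tested too. The change of Kdr in endothelium, less the mean change of the other 4 populations, was -0.55 ± 0.24 (log2, SE; adjusted p = 0.367, limma), and 0 of 5 members passed where 0.280% of all genes did. Set directly against CD140a mesenchyme, a contrast chosen after the values were seen, it was -0.92 ± 0.30 (adjusted p = 0.330, limma), and again 0 of 5 members passed (0.0244% of all genes).

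The 3 receptor kinases together summed in endothelium to 234.44, 239.54, 246.78 and 239.09 FPKM with Trap, against 304.62 and 291.60 FPKM in controls, without overlap. This sum was not tested. Of the 3, only Kdr separated by itself, as did 9.48% of the genes tested in that direction, while Flt1 and Flt4 overlapped. The sum of the pan-endothelial markers did not overlap either. Kdr made up 43.4%, 42.8%, 43.7% and 37.0% of the kinase sum with Trap, against 49.5% and 45.01% in controls, and Flt4 made up 12.2% in Trap replicate 2 and 6.20% to 7.48% in the other 5 libraries. The log2 ratio of Flt1 to Kdr averaged 0.27 ± 0.24 with Trap (SD, n = 4) and -0.05 ± 0.20 in controls (SD, n = 2), a difference of 0.32 (exact two-sided permutation test, p = 0.267, adjusted p = 0.622 over 7 ratios). Without control replicate 1 it was 0.18, without Trap replicate 4 0.21 and without control replicate 2 0.47. For Flt4 to Kdr the difference was 0.26 (exact permutation p = 0.400, adjusted p = 0.700), and 0.06 without Trap replicate 2. Nrp1 to Nrp2 differed by -0.36 in endothelium (exact permutation p = 0.267, adjusted p = 0.622) and by -0.26 to 0.07 in the other populations. Without each library in turn, it ran from -0.46 to -0.27 in endothelium, -0.33 to -0.14 in CD140a mesenchyme and -0.42 to -0.03 in CD146 mesenchyme. With 4 against 2 libraries this test cannot give a p below 0.0667.

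Of the 5 VEGF ligands, 4 had their highest mean outside endothelium. Vegfa, the main ligand of Kdr and Flt1, averaged 58.0 ± 7.31 FPKM in CD140a mesenchyme, 23.7 ± 2.46 FPKM in cTEC, 21.6 ± 1.45 FPKM in CD146 mesenchyme, 13.9 ± 2.61 FPKM in mTEC and 11.0 ± 1.45 FPKM in endothelium (SD, n = 6). Figf, which encodes VEGF-D, was highest in CD140a mesenchyme at 16.2 ± 4.30 FPKM and averaged 0.363 FPKM in endothelium, and Pgf, which among these kinases binds Flt1, was highest in CD146 mesenchyme at 8.64 ± 2.49 FPKM. Vegfc, a ligand of Flt4, was the ligand with its highest mean in endothelium (19.7 ± 6.81 FPKM). Against the other 4 populations, 1 of 5 ligands (Vegfc, 1.68 ± 0.20, log2, SE) was higher in endothelium and 3 (Vegfa, Vegfb and Figf) were lower. Of the 16425 genes tested, 2900 were higher there and 5661 lower.

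With Trap, 0 of 5 ligands passed in endothelium, where 1.74% of all genes did. Their median log2 difference was 0.26, against -0.02 over all genes. Pgf stood at 5.16 ± 2.06 FPKM with Trap (SD, n = 4) and 1.85 ± 0.955 FPKM in controls (SD, n = 2), a difference of 1.09 ± 0.33 (log2, SE; adjusted p = 0.0898, limma). In CD140a mesenchyme Pgf also separated, at 4.47 to 7.47 FPKM with Trap and 2.21 to 2.47 FPKM in controls. Vegfa was higher there (58.12 to 67.70 against 47.18 to 52.16 FPKM) and Figf lower (11.54 to 16.75 against 20.76 to 21.66 FPKM). Of all genes, 11.9% separated in CD140a mesenchyme, and 0 of 5 ligands passed. The mean of Pgf was lower with Trap in CD146 mesenchyme and mTEC. Vegfc in endothelium held 13.5, 26.8, 13.89 and 15.32 FPKM with Trap (17.4 ± 6.33), against 29.18 and 19.64 FPKM in controls (24.4 ± 6.75). Trap replicate 2 lay between the controls and the other Trap libraries lay below both, and no estimate without replicate 2 is given. Vegfa in endothelium stood at 11.0 ± 1.86 FPKM with Trap and 10.9 ± 0.368 FPKM in controls.

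Of the class 3 semaphorins, which bind neuropilins, Sema3g (19.6 FPKM in endothelium, 4.09 ± 0.17, log2, SE, against the other 4 populations) and Sema3f (7.95 FPKM, 1.34 ± 0.17) were higher in endothelium, and 3 of 7 were lower. Sema3c, a ligand for both neuropilins, was at 90.7 ± 12.4 FPKM in CD140a mesenchyme and at most 3.01 FPKM on average elsewhere. Of the 5 plexins that signal for them, Plxnd1 (3.34 ± 0.11), Plxna4 (2.70 ± 0.20) and Plxna2 (2.18 ± 0.09) were higher in endothelium and Plxna1 and Plxna3 lower. For both lists the share over all genes was 2900 of 16425 higher and 5661 lower. With Trap, 0 of 7 semaphorins and 0 of 5 plexins passed in endothelium, where 1.74% of all genes did, with medians of -0.01 and 0.05. Plxnd1, a plexin of vessels, held 66.5 ± 2.93 FPKM with Trap (SD, n = 4) and 86.1 ± 3.18 FPKM in controls (SD, n = 2), a difference of -0.37 ± 0.19 (log2, SE; adjusted p = 0.365, limma). Plxna1 held 7.56, 10.29, 7.97 and 8.07 FPKM with Trap, against 5.60 and 5.12 FPKM in controls. It differed by 0.57 ± 0.18 (log2, SE; adjusted p = 0.108, limma), with its highest value in Trap replicate 2.

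Among 20 partners and signal proteins of the receptors, 9 were higher and 4 lower in endothelium than in the other populations. Of all genes 17.7% were higher, and 5661 of the 16425 tested were lower. Cdh5 (8.52 ± 0.15, log2, SE), the phosphatase Ptprb (7.31 ± 0.12), the endocytic adaptor Dab2 (3.74 ± 0.12) and the nitric oxide synthase Nos3 (3.46 ± 0.15) were among the higher ones. With Trap, 1 rose and 0 fell in endothelium, where 0.323% of all genes rose and 1.42% fell, and the median of the 20 was 0.04. The gene that rose was Ptprj, a receptor phosphatase that acts on Kdr, at 8.21, 15.64, 4.90 and 4.53 FPKM with Trap, against 4.64 and 0.93 FPKM in controls. The groups overlapped, and the change was 1.35 ± 0.35 (log2, SE; adjusted p = 0.0442, limma). This call was lost on leaving out 20 of the 30 libraries, among them endothelial control replicate 2 (0.58, adjusted p = 0.521), Trap replicate 2 (1.02, adjusted p = 0.0939) and Trap replicate 1 (1.31, adjusted p = 0.0633).

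Of 18 genes known to rise with VEGF in cultured endothelium, 15 were higher in thymic endothelium than in the other populations (17.7% of all genes were), such as the matrix protease Adamts9 (2.65 ± 0.11, log2, SE) and Angpt2, a ligand of Tek (3.47 ± 0.14). With Trap, 2 fell and 0 rose in endothelium, against 1.42% of all genes that fell and 0.323% that rose. Of the 18, 12 had a log2 difference below 0, as had 8620 of the 16425 genes tested, and the median was -0.20, against -0.02 over all genes. Outside endothelium, 12 of the 18 were below 0 in CD146 mesenchyme (median -0.13) and 13 in cTEC (-0.14). In mTEC 11 were below 0 (-0.02), and in CD140a mesenchyme 9 (-0.01). In endothelium Kcne3, a potassium channel subunit, was at 0.85, 0, 1.69 and 0.59 FPKM with Trap (listed at 0 in replicate 2), against 5.02 and 6.64 FPKM in controls. The groups did not overlap, as for 9.48% of the genes tested in that direction. The change of Kcne3, -2.02 ± 0.25 (log2, SE; adjusted p = 1.17e-04, limma), kept its call without each library in turn (-2.24 to -1.77), and lost it with endothelium fitted alone (adjusted p = 0.484).

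Esm1, a proteoglycan secreted by endothelial tip cells, was at 2.71, 38.53, 0.67 and 2.30 FPKM with Trap, against 43.46 and 33.65 FPKM in controls. Replicate 2 lay between the controls and the other 3 Trap libraries far below both, and the change was -2.88 ± 0.72 (log2, SE; adjusted p = 0.0352, limma). Without Trap replicate 2 it was -3.84 (adjusted p = 5.53e-05), and the call was lost without any other endothelial library (adjusted p = 0.0599 to 0.217). Apln, the ligand of the apelin receptor, differed by -1.37 ± 0.43 (adjusted p = 0.106), and Adamts1, a matrix protease, by -0.47 ± 0.14 (adjusted p = 0.0887). With a weight per population, the calls of Esm1, Ptprj and Klf2 were also lost (adjusted p = 0.217 for Esm1).

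**Figure D5:**
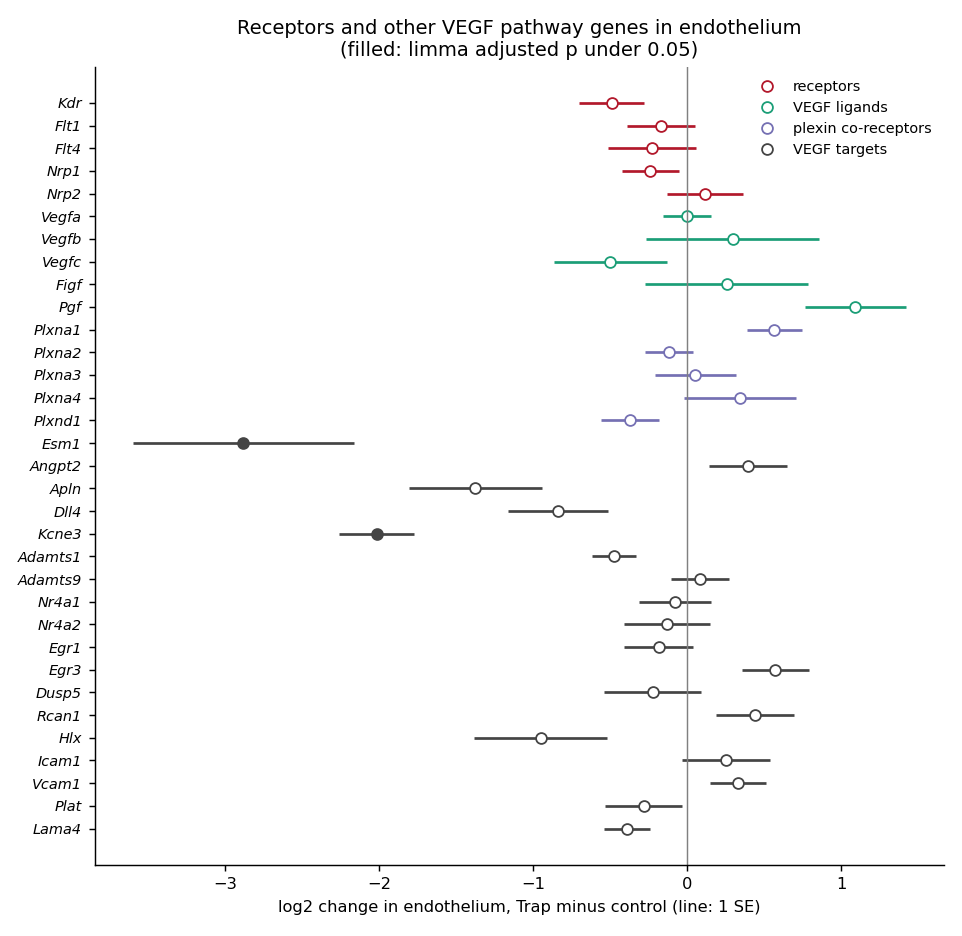
Trap minus control difference in endothelium, in log2(FPKM + 1) with 1 SE as a line, for the receptors, the VEGF ligands, the plexins and genes known to rise with VEGF, with filled points for a limma adjusted p under 0.05. Kcne3 and Esm1 are the filled points, at -2.02 and -2.88, and the receptors lie between -0.49 and 0.12.

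Transcription factors of endothelium were listed as well. Of 20 on the list, 19 were tested and 16 were higher in endothelium than in the other populations, Sox18 (6.81 ± 0.14, log2, SE), Sox7 (6.60 ± 0.17) and Epas1 (4.56 ± 0.10) among them. All genes gave 17.7% in that direction. With Trap, 1 fell and 0 rose, where 1.42% of all genes fell and 0.323% rose, and the median of the 19 was 0.03. The gene that fell was Klf2, a factor induced by blood flow, at 24.91, 24.59, 34.13 and 16.65 FPKM with Trap, against 74.31 and 47.11 FPKM in controls. The groups did not overlap, as for 9.48% of the genes tested in that direction. The change of Klf2 was -1.249 ± 0.30 (log2, SE; adjusted p = 0.0311, limma), and the call was lost without control replicate 1 (-0.93) or Trap replicate 4 (-1.08, adjusted p = 0.0736).

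Across all 30 libraries, the kinases ran closely together: Pearson's r of log2(FPKM + 1) was 0.961 for Kdr with Flt1, 0.961 for Kdr with Flt4 and 0.931 for Flt1 with Flt4, over libraries in which endothelium stands far from the rest. Nrp1 and Nrp2 had an r of 0.812, and Nrp1 with Kdr 0.563 and with Flt4 0.400. Among 10844 genes whose highest group mean reached 5 FPKM, the profile most like that of Kdr was Aplnr, the apelin receptor (r = 0.995), followed by Myct1, Shank3, Adgrl4 and the angiopoietin co-receptor Tie1. For Flt1 they were Rasgrp3 (0.980), Cd300lg, Dennd3, the fatty acid transporter Cd36 and the water channel Aqp1, and for Flt4 Adgrg3 (0.978), Ptprb, Egfl7, Gpihbp1 and Sox18.

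The gene most like Nrp1 was carried by mesenchyme as well: Rhoj, a small GTPase (r = 0.984), averaged 47.5 FPKM in endothelium, 51.7 FPKM in CD140a mesenchyme and 41.4 FPKM in CD146 mesenchyme, and Ltbp4, Ebf3, Ldb2 and Meox2 followed. For Nrp2 the list was Tgm2, a transglutaminase (r = 0.972), Mndal, Atp8b1, Jcad and Ece1. These values are descriptions over 30 libraries that share 5 populations. On the chromosome, Kdr lies beside Kit, the stem cell factor receptor, which averaged 49.0 FPKM in endothelium and 28.7 FPKM in mTEC, and next beyond it Pdgfra, at 121 FPKM in CD140a mesenchyme and 0.617 FPKM in endothelium.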

How the data were processed

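RNA was measured by RNA sequencing in 30 libraries of sorted thymic cells. Per the labels' protocols, RNA was purified on miRNeasy columns, amplified into cDNA (Ovation RNA-Seq System V2) and sequenced as read pairs. Per the submitters' processing notes, bcl2fastq 2.17, STAR and DESeq2 were used with GRCm38 (mm10). What each tool did, which annotation served and how reads were counted is not given in the sources used here. FPKM per protein-coding gene are the values the authors deposited. No step between low values matched whole reads (best score 0.214 of 1), so depth is unknown and precision is read from the spread between libraries.

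Values were analysed as log2(FPKM + 1) with limma 3.58.1 in R 4.3.3: genes reaching 1 FPKM in at least 2 libraries (16425), a mean per group over all 30 libraries, empirical Bayes with a variance trend, two-sided tests, Benjamini-Hochberg adjustment over all genes and a threshold of 0.05. This scale understates differences of low genes. Ratios between receptors were tested by exact permutation in SciPy 1.17.1. The fit was tested on simulated data. Of each list, up to 4 genes of smallest p with a group mean of at least 5 FPKM were named, with ligands and markers named by level and the 5 genes of highest r as like profiles. The members, lists and tests were chosen with earlier results of these data known. Of the table's identifiers, 18836 were found in GENCODE M21, and promoters came from RefSeq (GRCm38.p6). Alternatives were other pseudocounts, filters, scalings and weights, separate fits, a replicate block and leaving out each library.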

Additional observations from a re-analysis of the deposited data

Results flagged for a closer look

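In endothelium, Flt4 at 29.18 FPKM in Trap replicate 2 lay far above the other 3 Trap libraries (14.83 to 16.41 FPKM), with a gap to its nearest neighbour of 0.890 of the group's range. In cTEC, Flt1 at 0.80 FPKM lay above the other 3 Trap libraries (0.35 to 0.41 FPKM), with a gap of 0.867 of the range. The limit for 4 libraries is 0.829, and chance exceeds it in about 1 of 20 groups; 25 groups were examined.

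The Trap change of Kdr ran in opposite directions in endothelium, where all 4 Trap libraries were below both controls, and in CD140a mesenchyme, where all 4 were above. The difference of the changes was -0.92 (log2; adjusted p = 0.330, limma), and Kdr lay below 1 FPKM in all 6 CD140a libraries.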

How the results depend on the processing

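In each Trap contrast and each difference of Trap changes, 0 of 5 members passed under every alternative run, and leaving out each library changed none of these counts. Endothelium against the rest called all 5 throughout, and the 10 pairs gave 37 to 40 calls of 50. Kdr in endothelium kept its sign (-0.52 to -0.42 over the alternatives, adjusted p = 0.223 to 0.760; -0.59 to -0.39 without each library). Some values changed sign. With a pseudocount of 0.1, the mean Trap change became 0.038 for Flt4 and 0.021 for Nrp1, Flt1 in CD146 mesenchyme against the rest 0.20, and the Trap change of Nrp1 to Nrp2 in cTEC 0.034. After rescaling to TPM, the mean Trap changes of Kdr, Flt4 and Nrp1 were 0.0014, 0.014 and 0.040, and Flt1 in CD146 mesenchyme against the rest 0.25. Quantile normalization gave 0.042 for Nrp1 with Trap in mTEC, 0.022 for its mean Trap change, 0.032 for Flt4 in CD146 mesenchyme against mTEC (-0.52 and past the threshold as reported), and, for cTEC against mTEC, 0.095 for Kdr and 0.25 for Flt4 (-0.12 and -0.29 as reported). Upper quartile scaling gave 0.0091 for the Nrp2 change in endothelium less the others and 0.024 for the mean change of Nrp1. Leaving out each library, Trap changes ran from -0.082 to 0.35 for Flt4 in CD146 mesenchyme, -0.018 to 0.51 for Nrp1 in cTEC, and in mTEC from -0.52 to 0.023 for Kdr, -0.33 to 0.076 for Flt4 and -0.19 to 0.077 for Nrp1. The mean Trap change ran from -0.10 to 0.0054 for Kdr and -0.066 to 0.039 for Nrp1, and Nrp2 in endothelium less the others from -0.084 to 0.023. Against the rest, Nrp2 in CD140a mesenchyme ran from -0.026 to 0.12, and Kdr in cTEC against mTEC from -0.26 to 0.016. The Trap change of Nrp1 to Nrp2 ran from -0.18 to 0.14 in cTEC and from -0.12 to 0.27 in mTEC. The cause was not tested.

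Replicate numbers were not treated as pairs in the main fit. Across populations, deviations correlated at -0.0496 to 0.102 for the same number and at -0.0855 to 0.082 for different numbers. Between Trap and control of the same number they correlated at -0.275 to 0.0809. Such correlations cannot tell whether libraries shared animals, which the labels do not say. With the number as a replicate block, 0 members passed in each Trap contrast, the mean Trap change of Nrp1 was 0.016, and 27 rather than 70 genes passed in the mean Trap change. Counts over all genes moved more: in endothelium 286 genes passed, but 0 when fitted alone, 13 with a weight per population, 189 after quantile normalization, and 89 to 468 without each library (89 without control replicate 1); in mTEC 57, and 0 to 205. The other Trap contrasts called 3 genes in CD146 mesenchyme (0 to 19), 0 in CD140a mesenchyme (to 9), 1 in cTEC (0 to 8), 46 for endothelium less the others (5 to 223) and 4 for endothelium less CD140a mesenchyme (0 to 68). Esm1, Klf2 and Ptprj lost their calls under several alternatives (with a weight per population, adjusted p = 0.217, 0.276 and 0.241), and Kcne3 only when endothelium was fitted alone (adjusted p = 0.484), where no gene passed. Depth is unknown, which limits Kdr and Flt4 outside endothelium.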
